A study of Homo sapiens with 7 samples.

Results

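The loci of 9 transcription factor genes of the neural ectoderm were followed through the differentiation of human embryonic stem cells into pharyngeal foregut endoderm. The genes were PAX6, SOX1, ZIC2, POU3F1, LHX2, SIX3, SIX6, OTX1 and SALL3. A peak belonged to a locus where its summit lay within the gene or no more than 100 kb beyond either end (genome build hg38). This window held 2245 of the 2093738 peaks in the 7 deposited lists, between 258 and 389 in each library. The peaks came from ATAC-seq, in which the transposase Tn5 cuts accessible DNA. All cells were of H1, a single established line of human embryonic stem cells, so that the line and its genetic background are shared by every stage. Sampled were the stem cells before differentiation (hESC, 2 libraries), definitive endoderm (hDE, 2), anterior foregut endoderm (hAFE, 2) and pharyngeal foregut endoderm (hPFE, 1). The labels give no day, dose or differentiation agent. They mark the hESC and hDE libraries as re-analysed from an earlier series, so that stage and series cannot be told apart between hDE and hAFE or between hESC and hPFE. They do not say whether replicates were separate cultures, and the spread between them is that between libraries.

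The neural plate forms from ectoderm that is not diverted to epidermis, mesoderm or endoderm, and human stem cells turn to it readily when the signals for those other fates are blocked. SOX1 is among the earliest factors of the neural plate, PAX6 marks early human neuroectoderm and the eye field, and ZIC2 and POU3F1 act in the exit from pluripotency and in neural patterning. SIX3, SIX6, LHX2 and OTX1 shape the forebrain and eye, and SALL3 is a zinc finger factor of neural and limb development. The neural fate of these genes is not the one at which a differentiation to endoderm aims, and their expression was not measured here.

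Peaks of a library that overlapped were merged to regions and ranked by the authors' −log10 p. Regions ranked in the top 50000 of their library are termed strict, and a region is termed absent from a library in which no deposited peak overlapped it. Strict regions of all 7 libraries merged to 129726 regions, of which 114 had their best-ranked summit at one of the 9 loci. Regions per locus numbered 19 at ZIC2, 17 at SIX3, 16 at LHX2, 14 each at PAX6 and POU3F1, 11 at SOX1, 10 at OTX1, 9 at SALL3 and 4 at SIX6. Between 39.6% and 60.1% of the members' peaks of a library overlapped one of the 114, and the others were weaker peaks that are only counted here. Fold enrichments are the authors' values of summit over local background within 1 library, and they are given as a description.

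Each list held between 298508 and 299374 peaks. Depth is not given, and neither is what the pileup counts. A background recovered from the weaker regions of each list was used as a rough guide, and its relation to depth was not tested. It was 2.11 and 4.62 at hESC, 4.58 and 7.94 at hDE, 2.22 and 3.85 at hAFE, and 5.66 at hPFE. The median summit of the strict regions was 11.7 times this background in hPFE, below the 13.3 to 33.8 times of the other 6 libraries. Stage markers were checked by their strict regions. Of 7 stem cell genes, 6 had fewer in both hDE libraries than in both hESC libraries, and 5 of 8 definitive endoderm genes had more. The shares of all genes were 23.4% with fewer and 11.5% with more. The 5 anterior foregut markers did not set hAFE apart from hDE, with more strict regions at 1 gene and fewer at 1, against 19.1% and 11.3% of all genes. Of the 8 pharyngeal markers, 3 had more strict regions at hPFE than at hAFE and 3 had fewer, against 23.9% and 32.3% of all genes. These markers thus did not set hPFE apart from hAFE either.

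The sequences before the starts of LHX2, SIX6, PAX6 and SALL3 are shown because the first pair was strict in every library and the second pair was not. Each is the 250 bases before the RefSeq start site (GRCh38.p14), 5′ to 3′ on the gene's strand, with CG dinucleotides in capitals.
LHX2 (chr9:124011518-124011767, plus strand): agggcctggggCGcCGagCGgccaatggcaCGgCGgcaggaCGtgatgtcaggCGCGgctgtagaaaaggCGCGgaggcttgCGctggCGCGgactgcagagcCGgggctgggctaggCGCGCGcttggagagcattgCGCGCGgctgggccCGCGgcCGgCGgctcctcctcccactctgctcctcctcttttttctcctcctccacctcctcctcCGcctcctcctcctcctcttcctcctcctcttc
SIX6 (chr14:60508896-60509145, plus strand): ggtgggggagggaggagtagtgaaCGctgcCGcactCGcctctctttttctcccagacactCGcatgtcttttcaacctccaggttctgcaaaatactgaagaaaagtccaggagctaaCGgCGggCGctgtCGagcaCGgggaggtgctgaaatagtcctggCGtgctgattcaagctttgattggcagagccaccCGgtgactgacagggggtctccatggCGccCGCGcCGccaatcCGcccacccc
PAX6 (chr11:31817962-31818211, minus strand): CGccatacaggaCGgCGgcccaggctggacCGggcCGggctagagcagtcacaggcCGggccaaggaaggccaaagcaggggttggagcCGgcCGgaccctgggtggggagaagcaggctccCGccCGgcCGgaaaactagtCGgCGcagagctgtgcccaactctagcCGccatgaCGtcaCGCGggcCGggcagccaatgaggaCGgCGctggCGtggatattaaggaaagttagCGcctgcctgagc
SALL3 (chr18:78979568-78979817, plus strand): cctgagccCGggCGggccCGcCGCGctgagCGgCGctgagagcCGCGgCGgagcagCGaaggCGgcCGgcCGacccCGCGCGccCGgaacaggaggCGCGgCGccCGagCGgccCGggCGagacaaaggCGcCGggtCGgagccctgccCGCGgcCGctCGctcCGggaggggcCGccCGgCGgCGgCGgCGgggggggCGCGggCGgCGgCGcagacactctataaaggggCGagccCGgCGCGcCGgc

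The 4 stretches hold 25 CG dinucleotides at LHX2, 16 at SIX6, 22 at PAX6 and 49 at SALL3. SIX6, with the fewest of the 4, was strict in all 7 libraries, and SALL3, with the most, was not. RefSeq gave 16 promoter windows for 8 of the 9 genes, 9 of them at alternative starts of PAX6 and none for SIX3. A window spans 250 bases before and 50 bases after the start. The median GC content of the 16 was 66.0%, against 62.3% for all 22132 protein-coding promoters, and the median ratio of observed to expected CG was 0.78 against 0.738. Of the 16, 18.8% overlapped a strict region in every library, against 47.7% of all promoters. PAX6 supplies most of these windows, so they are not separate loci. A set of 8 motifs was searched on both strands, none of which contains another. CCAAT was found in 7 of the 16 windows, against 34.6% of all promoters. TATAAA was found in 1 (SALL3), against 9.46%, AGATAA in 1 (PAX6), against 7.88%, and ACAATGG in 1 (PAX6), against 2.48%. The forkhead motif TGTTTAC was in none of the 16 and in 2.85% of all promoters, and the octamer ATGCAAAT in none and in 1.65%. The OTX motif TAATCC was in none and in 5.46%, and the homeodomain core TAATTA in none and in 3.4%.

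The regions at the gene starts fell into 3 kinds. LHX2, SIX6 and OTX1 had a strict region over the start in all 7 libraries. The LHX2 region lay at chr9:124011373-124012130, and its fold enrichment was 6.17 and 9.11 at hESC, 8.80 and 10.6 at hDE, 8.86 and 9.64 at hAFE, and 5.68 at hPFE. The SIX6 region lay at chr14:60508578-60509629 and had fold enrichments of 5.81 and 6.98 at hESC, 7.91 and 12.8 at hDE, 14.9 and 12.03 at hAFE, and 5.69 at hPFE. The OTX1 region, chr2:63050084-63051098, ran from 4.04-fold at hESC replicate 1 to 8.14-fold at hAFE replicate 2. The RefSeq start of OTX1 used here lay inside the gene span. The region did not reach the 5′ end of that span, and its summit lay 1025 bp inside it. These 3 starts were thus strict at every stage sampled.

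POU3F1, SOX1 and ZIC2 had a peak over the start in every library that was not strict in all of them. The POU3F1 region at chr1:38046394-38048081 was strict in 6 libraries and was a weaker peak in hDE replicate 2. The SOX1 region at chr13:112066243-112067424 was strict in both hESC libraries, in hDE replicate 1 and in hPFE, and was a weaker peak in hDE replicate 2 and in both hAFE libraries. The ZIC2 region at chr13:99980196-99982339 was strict in both hAFE libraries, in hPFE and in replicate 1 of hESC and of hDE. In the other hESC and hDE replicates the ZIC2 peak was not among the top 50000. The promoter window of ZIC2 itself was strict only in replicate 1 of hESC and of hDE and in hAFE replicate 2. It had a weaker peak in hAFE replicate 1 and in hPFE. No start of this kind was absent from any library.

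PAX6, SALL3 and SIX3 differed between stages. The region at the first start of PAX6, chr11:31817739-31818383, had fold enrichments of 2.97 and 4.98 at hESC, 3.34 and 3.41 at hDE and 2.49 at hPFE, with no peak in either hAFE library. It was strict only in hESC replicate 2. At the other 8 RefSeq starts of PAX6, 1 window was strict in 1 library, and 3 windows had no peak in any library. The SALL3 region, chr18:78978944-78980455, was strict in all 4 hESC and hDE libraries and in none of the 3 later ones. The shown stretch itself had no peak in replicate 2 of hESC or of hDE. The fold enrichments of the region were 3.93 and 6.45 at hESC, 7.60 and 7.32 at hDE, 2.76 and 4.09 at hAFE, and 3.27 at hPFE. The lower-coordinate end of SIX3, chr2:44941496-44942017, showed another order. It had no peak in hESC, weaker peaks of 2.50-fold and 3.80-fold at hDE, strict peaks of 5.70-fold and 4.72-fold at hAFE and a weaker peak of 2.47-fold at hPFE. RefSeq gave no start site or strand for SIX3 in the table used, so that this end is given by coordinate. No region at an end of a member was gained or lost by the rule used below.

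**Figure D1:**
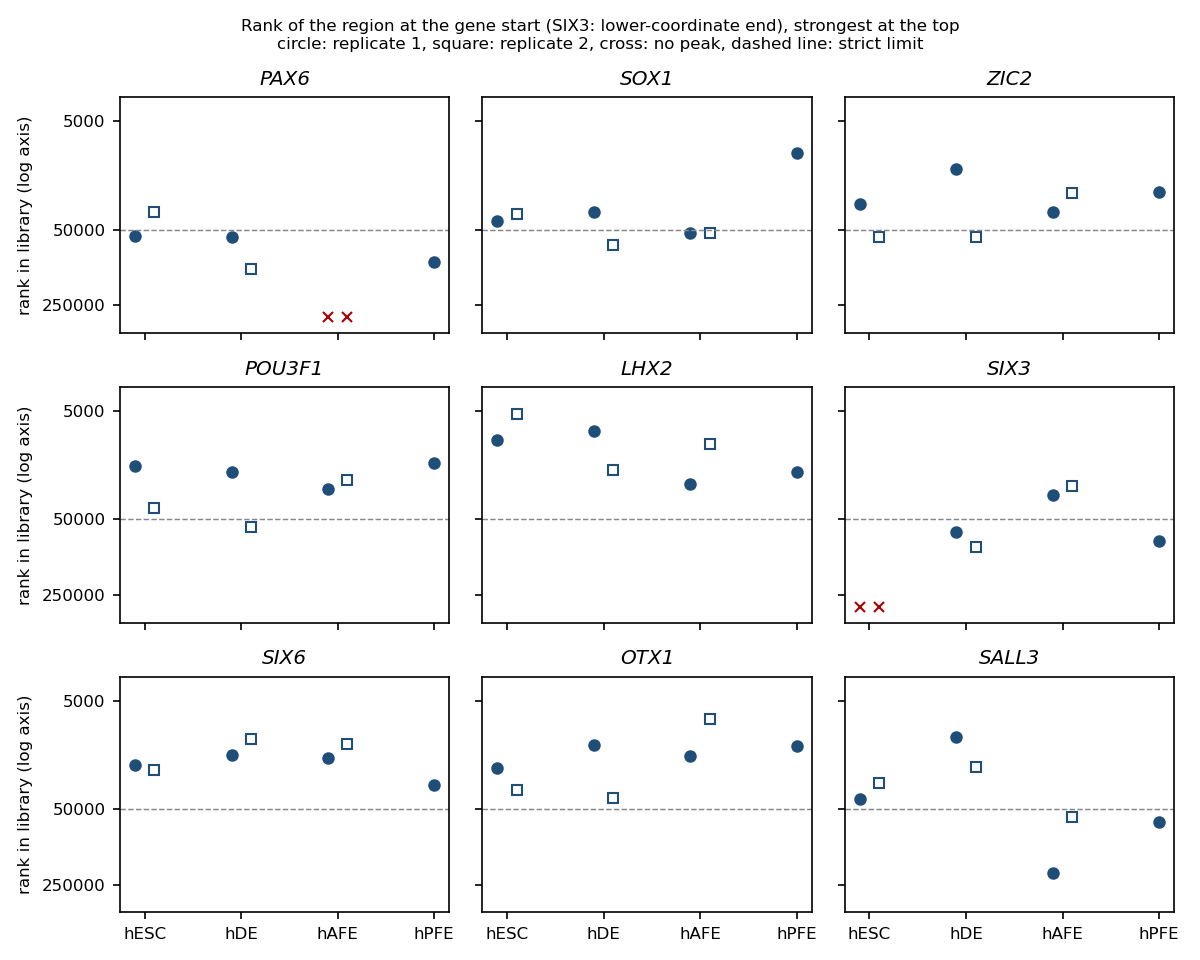
Rank of the region at each gene start within its library (vertical axis, log scale, strongest at the top) for the 9 genes, with 1 point per library by stage and replicate, a cross for no peak, and a dashed line at rank 50000. LHX2, SIX6 and OTX1 (a start inside the gene span) lay above the line in all 7 libraries. PAX6 had no peak in hAFE, and SIX3 (lower-coordinate end) had none in hESC.

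Across the whole windows, the 9 loci held 54 and 60 strict regions at hESC, 47 and 33 at hDE, 43 and 49 at hAFE, and 35 at hPFE. The mean per member gene was 6.0 and 6.67 at hESC, 5.22 and 3.67 at hDE, 4.78 and 5.44 at hAFE, and 3.89 at hPFE. The mean over all 19713 protein-coding genes with a region in the same window was 7.04 and 7.91 at hESC, 7.08 and 5.70 at hDE, 7.35 and 6.96 at hAFE, and 6.87 at hPFE. The members had fewer strict regions than the mean gene in all 7 libraries. The low count of hDE replicate 2 at the members went with a low mean over all genes in that library.

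PAX6 had 6 and 7 strict regions at hESC, 4 and 4 at hDE, 6 and 6 at hAFE, and 4 at hPFE. SOX1 had 5 and 7 at hESC, 4 and 1 at hDE, 3 and 5 at hAFE, and 2 at hPFE. ZIC2 had 10 and 8 at hESC, 6 and 3 at hDE, 3 and 7 at hAFE, and 4 at hPFE. At all 3 genes both hESC libraries lay above both hDE libraries and above hPFE. With the top 25000 regions PAX6 turned round and had 1 and 1 at hESC, 1 and 1 at hDE, 5 and 4 at hAFE, and 3 at hPFE. POU3F1 had 8 and 11 at hESC, 8 and 4 at hDE, 7 and 6 at hAFE, and 6 at hPFE. LHX2 had 7 and 7 at hESC, 4 and 5 at hDE, 5 and 3 at hAFE, and 6 at hPFE. SIX3 had 7 and 8 at hESC, 8 and 4 at hDE, 7 and 8 at hAFE, and 3 at hPFE. At POU3F1 and SIX3 the hDE replicates differed by 4 regions. OTX1 had 4 and 3 at hESC, 5 and 4 at hDE, 5 and 5 at hAFE, and 2 at hPFE. SALL3 had 3 and 5 at hESC, 4 and 4 at hDE, 3 and 5 at hAFE, and 4 at hPFE. SIX6 had 4 in every library, and neither SIX6 nor SALL3 separated any pair of stages.

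**Figure D2:**
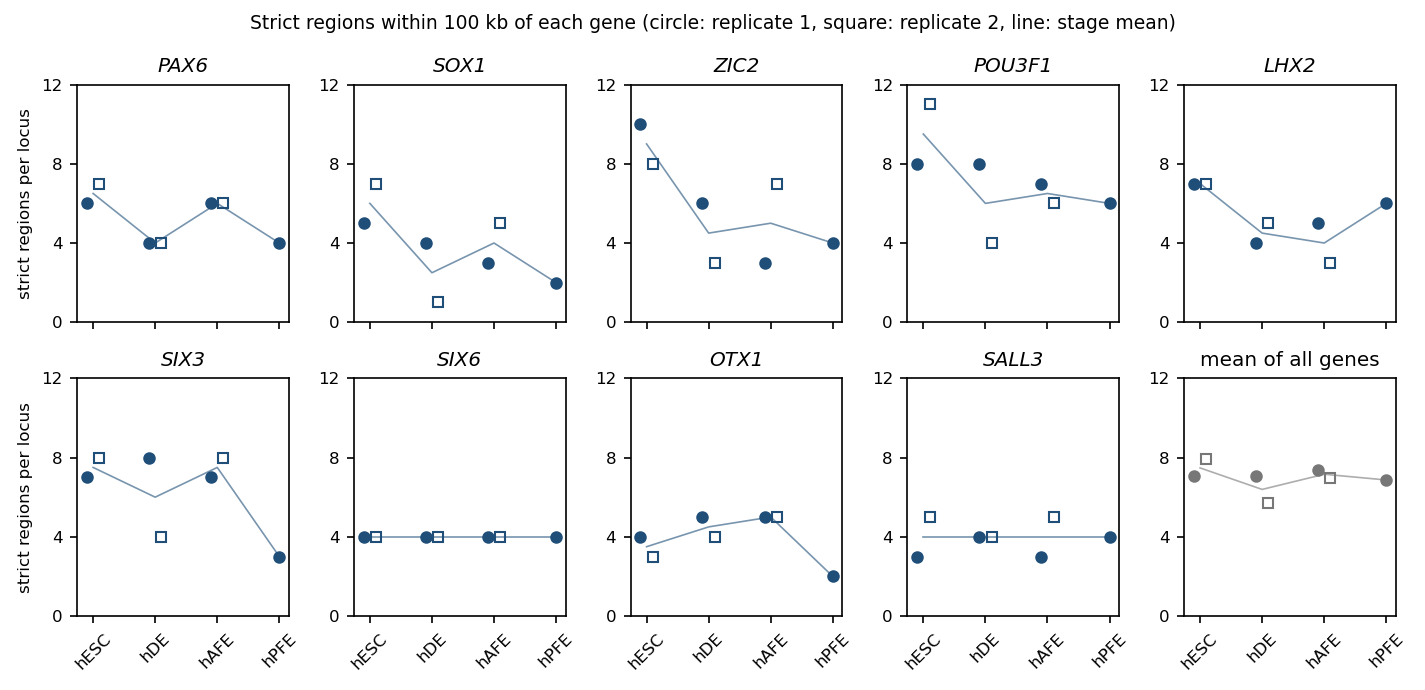
Number of strict regions in the window of each member gene in each library, from hESC to hPFE. SIX6, with 4 regions in all, had 4 in all 7 libraries at this limit and 0 to 4 with the top 25000, while ZIC2 ranged from 3 to 10 and POU3F1 from 4 to 11.

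A gene was counted as lower or higher at a stage where every library of that stage had fewer or more strict regions than every library of the stage compared. In hDE against hESC, 4 of the 9 genes were lower (PAX6, SOX1, ZIC2 and LHX2) and none was higher, against 23.4% and 11.5% of all genes. With 2 libraries against 2 the smallest two-sided exact permutation p is 0.333, above 0.05, so no test was run, and hPFE has no replicate. Leaving out a replicate can only keep or add genes by this rule, so it is no check on these 4 genes. They were not lower when strict was set by a −log10 q of at least 5 in place of rank, which left 0 genes lower. With the top 25000 regions 2 of the 4 were lower, as with a summit of at least 10 times background. In hAFE against hDE, PAX6 was higher and no gene was lower, against 19.1% and 11.3% of all genes. In hPFE against hAFE, LHX2 was higher and PAX6, SOX1, SIX3 and OTX1 were lower, against 23.9% higher and 32.3% lower among all genes. The number lower was 7 with the −log10 q limit and 9 with the summit limit. Shares of all genes are given for the main rule only, so the numbers under other limits have no background beside them. In hPFE against hESC, 7 genes were lower, all but SIX6 and SALL3, and none was higher, against 36.5% and 21.6%. With the top 25000 regions or the −log10 q limit 3 genes were lower in hPFE than in hESC. With the top 25000 the difference between hPFE and the mean of hESC turned positive at PAX6 and OTX1. The low summits over background in hPFE move with these counts, and their part was not tested.

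The members' regions also differed from all regions in the stage at which they were strict. Of the 114 regions, 34 (29.8%) were strict in at least 1 hESC library and in no later library, against 16.6% of all 129726 regions. ZIC2 held 7 of them, PAX6 and LHX2 6 each, SIX3 4, SOX1, POU3F1 and OTX1 3 each, SALL3 2 and SIX6 0. Of the 34, 10 were strict in both hESC libraries (8.77% of the 114, against 4.98% of all regions). Another 16 were strict in replicate 2 only (14.0% against 5.78%) and 8 in replicate 1 only (7.02% against 5.83%). The share for replicate 1 only was thus near that of all regions. Without hESC replicate 1 the number was 26 (22.8% against 10.8%), and without replicate 2 it was 18 (15.8% against 10.8%). In hPFE 26 of the 34 had no peak, a share similar to the 16190 of 21524 such regions among all. No peak in any later library was found at 8 of the 34, a number for which no share over all regions is given. By the same rule of at least 1 library, regions strict at hDE alone numbered 7 (6.14%, against 15.2% of all), at hAFE alone 10 (8.77% against 12.5%) and at hPFE alone 8 (7.02% against 15.2%). Regions strict in at least 1 library of all 4 stages numbered 19 (16.7% against 15.3%). In hESC 21.9% and 17.5% of the 114 regions were absent, against 39.9% and 35.4% of all regions. A region strict in a library cannot be absent from it, so these absent shares are not separate from the strict shares. The strict shares in hESC were 47.37% and 52.63% of the 114 regions, against 37.65% and 38.16% of all. In hPFE 35.1% were absent, against 39.8%. These shares are over regions of 9 loci, which are not independent, and carry no test.

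**Figure D3:**
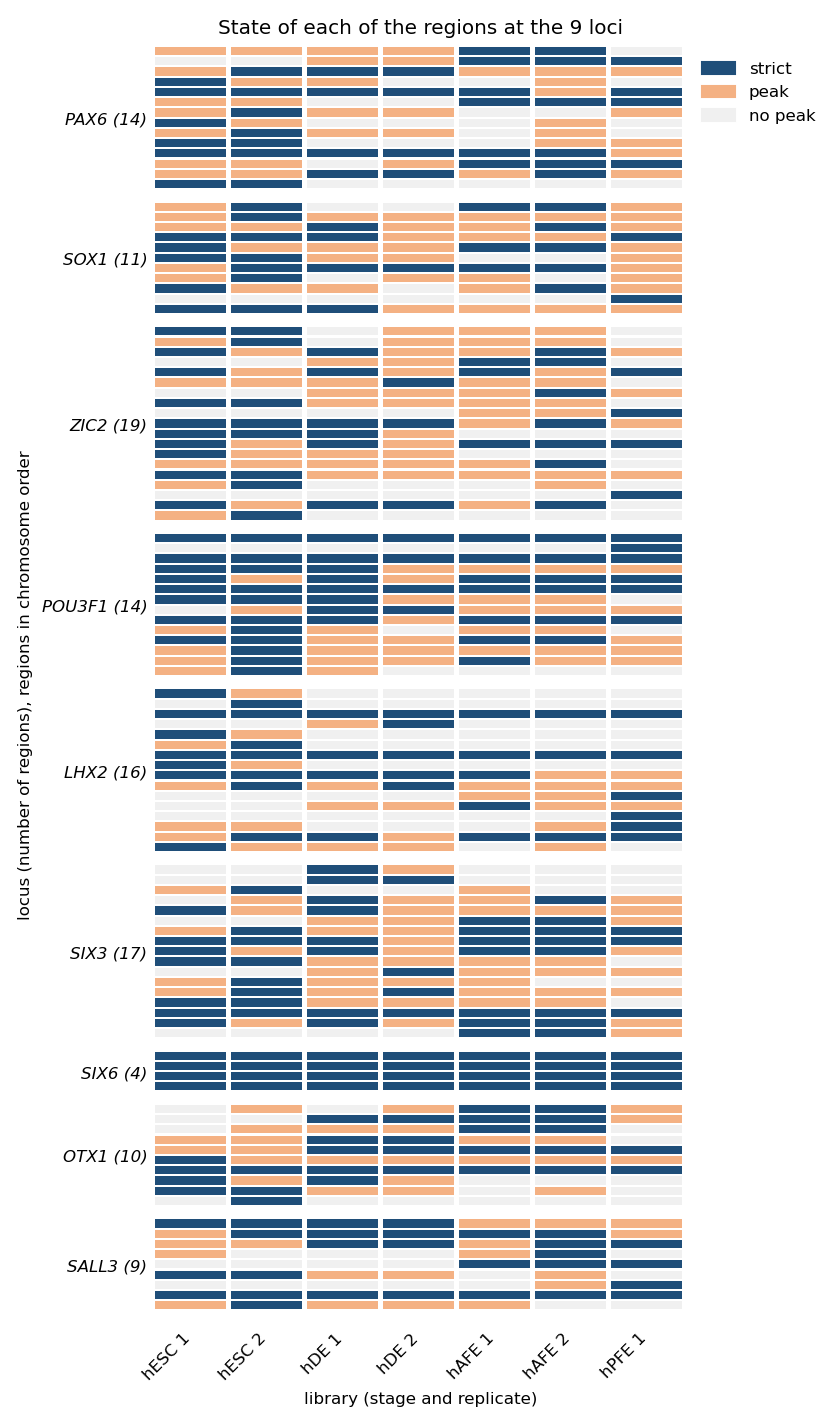
State of each of the 114 regions (rows, grouped by gene) in each of the 7 libraries (columns, hESC to hPFE), as strict, a weaker peak or no peak. The 34 regions strict in hESC alone stand beside the 4 SIX6 regions that were strict in all 7 libraries.

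Gained regions were strict in every library of the later stage and absent from every library of the earlier, and lost regions were the reverse. In hDE against hESC, 2 of the 114 regions were gained (1.75%, against 5.43% of all regions) and 2 were lost (1.75% against 1.15%). In hAFE against hDE, 4 were gained (3.51% against 2.05%) and 1 was lost (0.877% against 3.2%). In hPFE against hAFE, 4 were gained (3.51% against 8.45%) and 3 were lost (2.63% against 4.18%). In hPFE against hESC, 9 were gained (7.89% against 13.4%) and 9 were lost (7.89% against 6.61%). Stable regions, strict in every library of both stages, were 14.9% of the members' regions for hDE against hESC, 14.9% for hAFE against hDE, 20.2% for hPFE against hAFE and 14.0% for hPFE against hESC. The same shares over all regions were 15.8%, 16.4%, 17.5% and 14.4%. In all, 27 of the 114 regions (23.68%) were gained or lost in at least 1 comparison, against 31.4% of all regions.

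The spread between replicates was small by the same measure. Between replicates of a stage, 0 to 2 of the 114 regions (0 to 1.75%) were strict in 1 library and absent from the other, against 0.047% to 1.65% of all regions. Set library by library, hDE had 3 to 5 strict regions that were absent from hESC (2.63% to 4.39%, against 7.64% to 13.0% of all regions). The hESC libraries had 7 to 12 that were absent from hDE (6.14% to 10.5%, against 4.35% to 5.52%). More member regions were thus missing from hDE than from hESC, while over all regions more were missing from hESC. In hAFE 4 to 7 strict regions were absent from hDE (3.51% to 6.14%, against 5.31% to 6.67%), and in hDE 2 to 4 were absent from hAFE (1.75% to 3.51%, against 5.34% to 9.36%). In hPFE 4 to 6 strict regions were absent from hAFE (3.51% to 5.26%, against 10.2% to 10.6%), and in hAFE 3 to 6 were absent from hPFE (2.63% to 5.26%, against 7.73% to 8.69%). Between hPFE and hESC, the strict regions of hPFE included 9 absent from either hESC library (7.89%, against 15.1% to 15.8%), and the reverse number was 18 or 21 (15.8% or 18.4%, against 12.2% or 12.3%). The number lost by hPFE relative to hESC was 9 with both hESC libraries, 21 without replicate 1 and 18 without replicate 2. The share over all regions was 6.61%, 12.2% and 12.3%. A call must hold in every library, so leaving out a replicate can only keep or add calls. The last pair of numbers repeats the library-by-library numbers and is no separate result. The number lost by hDE was likewise 2 with both, 9 without hESC replicate 1 and 6 without replicate 2, against 1.15%, 3.04% and 3.26% of all regions.

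**Figure D4:**
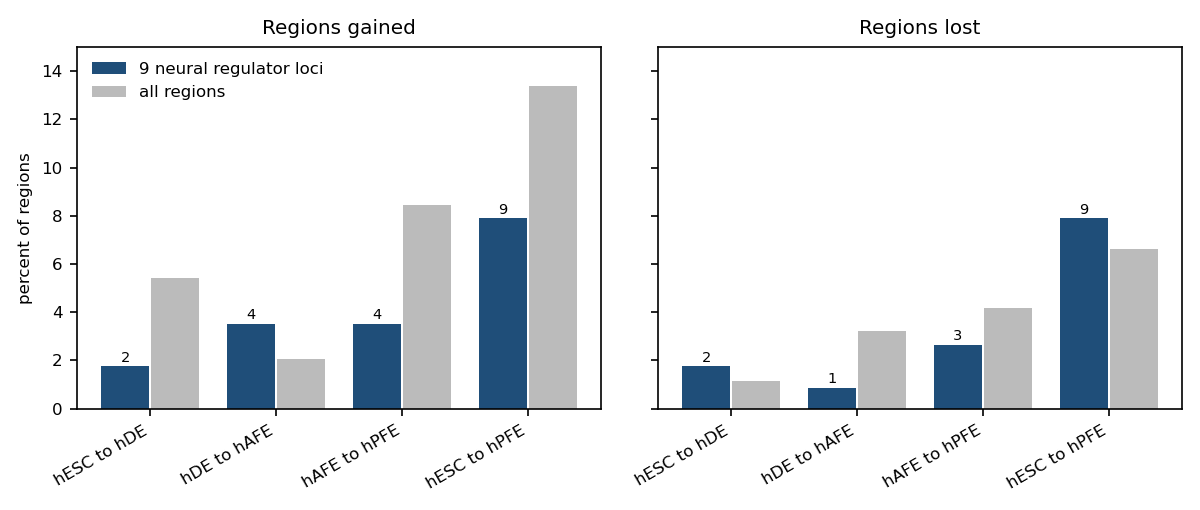
Percent of regions gained and lost in the 4 stage comparisons, for the 114 regions at the 9 loci beside all 129726 regions. Gains lay below the share of all regions in hDE against hESC, in hPFE against hAFE and in hPFE against hESC, and above it in hAFE against hDE (3.51% and 2.05%).

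By position, 25 of the 27 gained or lost regions were distal, outside the member and more than 1 kb from an end of any protein-coding gene. Ends of non-coding genes were not considered, and a distal region could lie inside another gene. The share of distal regions among all gained or lost regions is not given. Of the remaining pair, 1 lay inside PAX6 and 1 within 1 kb of an end of CLYBL, a neighbour of ZIC2. The distal regions numbered 84, of which 2 were strict in all 7 libraries. Of the 10 regions within 1 kb of an end of another gene, 7 were strict in all 7 libraries, at the ends of INPP5B, SF3A3 and UTP11 near POU3F1, DENND1A near LHX2, SIX2 near SIX3, C14orf39 near SIX6 and ATP9B near SALL3. Together these and the regions over LHX2, SIX6 and OTX1 made up 10 of the 12 regions strict in every library. The other pair were distal regions at SIX6. A region in a shared window is counted at the member by position alone, and which gene it acts on was not measured.

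PAX6, a paired-box and homeodomain factor of eye and forebrain, held 5 of the 27 regions. The region at chr11:31811798-31812301 lay inside the gene, 5870 bp from its 5′ end and 629 bp from the nearest RefSeq start. Its fold enrichment was 2.00 and 2.51 at hESC, 8.43 and 11.5 at hAFE and 3.19 at hPFE, with no peak in hDE. It was strict in all 3 later libraries and in none of the 4 earlier. A region at chr11:31779217-31779847, inside the neighbouring ELP4 and 9579 bp beyond PAX6, had no peak in hESC, 2.69-fold and 5.26-fold peaks at hDE, 13.9-fold and 9.99-fold peaks at hAFE and an 8.85-fold peak in hPFE. Further out in ELP4, chr11:31763276-31763722 had peaks of 4.23-fold and 7.83-fold at hESC, 4.48-fold and 9.28-fold at hDE and 18.9-fold and 17.4-fold at hAFE, and none in hPFE. It was strict in hAFE alone. On the other side of the gene, a pair of strict hESC regions had no peak in hDE. The region at chr11:31863115-31863891 had 5.20-fold and 9.32-fold peaks at hESC, none in hDE or hAFE replicate 1, and weaker peaks of 3.21-fold in hAFE replicate 2 and 2.29-fold in hPFE. The region at chr11:31887251-31887504 was strict in hESC at 5.38-fold and 7.47-fold and had no peak in any of the 5 later libraries. Between them, chr11:31875653-31876533 was strict in the 3 later libraries, at 12.8-fold and 14.6-fold at hAFE and 12.2-fold at hPFE, with weaker peaks at hESC and in hDE replicate 2. PAX6 thus had as many strict regions in hAFE as in hESC replicate 1, but 6 of its 14 regions were strict in hESC alone, 2 of them in both hESC libraries.

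**Figure D5:**
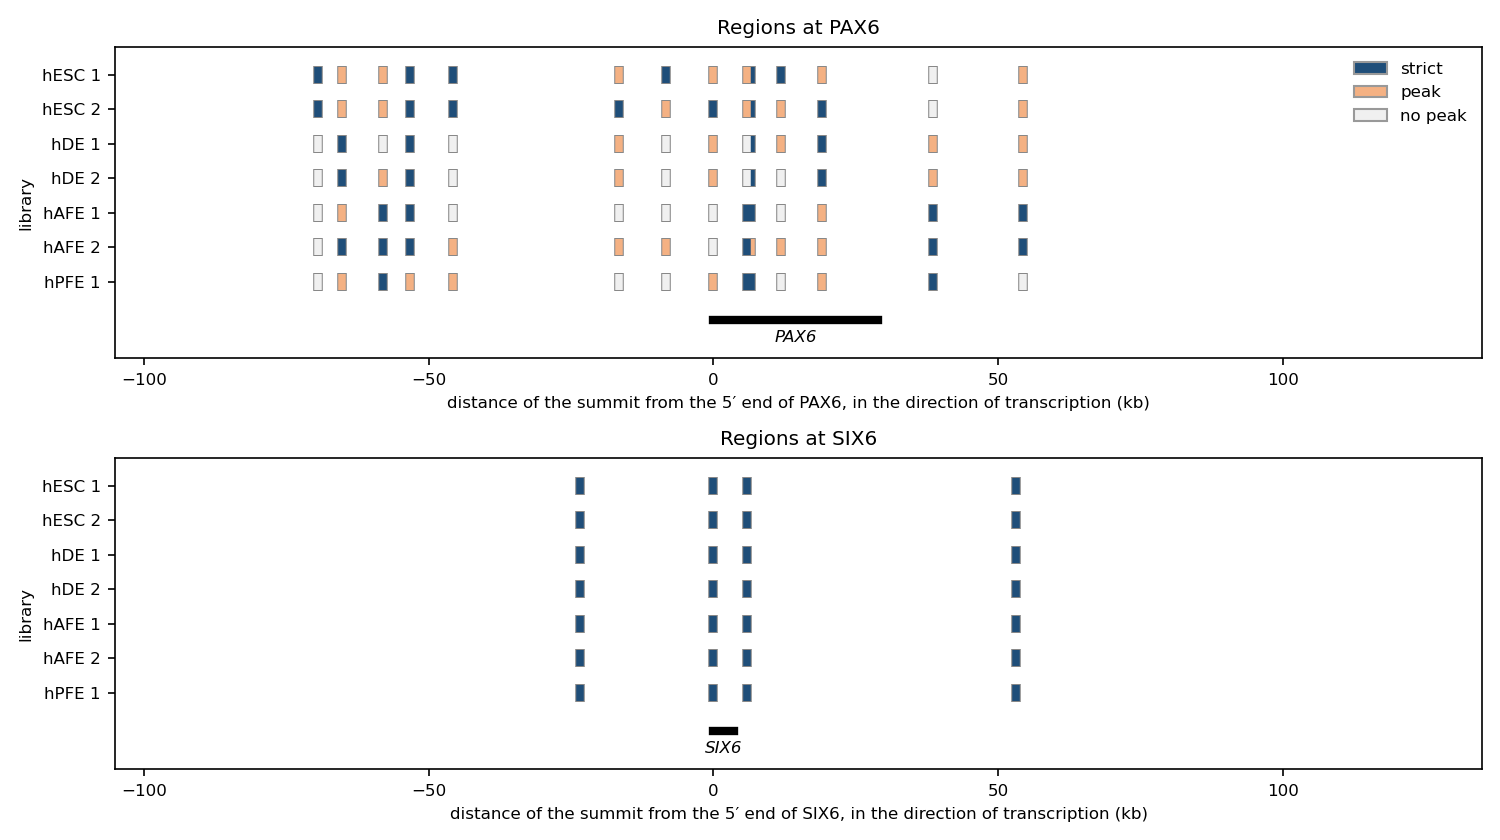
Regions at PAX6 (top) and SIX6 (bottom) by the distance of their summit from the 5′ end of the gene in kb, in the direction of transcription, with 1 row per library and the state as strict, a weaker peak or no peak. At PAX6 the 14 regions differed between stages, while the 4 SIX6 regions were strict in all 7 libraries.

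SIX3 and SIX6 are related homeodomain factors, both required in forebrain and eye development, and their loci differed. At SIX6 all 4 regions were strict in every library, at the start, at an end of C14orf39 and at a pair of distal sites. That count was at the ceiling set by the 4 regions, and it varied under other limits. With the top 25000 regions SIX6 had 3 and 2 strict regions at hESC, 2 and 3 at hDE, 3 and 4 at hAFE and 0 at hPFE. With a summit of at least 10 times background it had 4 and 7 at hESC, 4 and 6 at hDE, 4 and 4 at hAFE and 2 at hPFE. The distal region at chr14:60485155-60486319 had fold enrichments of 10.0 and 11.8 at hESC and 5.99 at hPFE. The distal region at chr14:60562159-60562712 had 11.2-fold and 15.5-fold enrichment at hESC and 5.86-fold at hPFE. At SIX3, chr2:44925338-44926255 was strict in both hDE libraries, at 6.99-fold and 10.3-fold, and had no peak in the other 5. The region at chr2:45040732-45041205, 94929 bp beyond the gene, had no peak in hESC or hDE, was strict in hAFE at 14.1-fold and 9.89-fold, and had a weaker 4.20-fold peak in hPFE. The regions at chr2:44964645-44965108 and chr2:45000280-45001207 were strict in both hESC libraries, weaker peaks at hDE and hAFE and absent from hPFE. Of the 17 SIX3 regions, 4 were strict in hESC alone (2 of them in both libraries), 3 at hDE alone and 2 at hAFE alone, and the count per library did not separate hDE from hESC.

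LHX2 is a LIM homeodomain factor of the eye field and cortex. Of its 16 regions, 6 were strict in hESC alone, each in only 1 of the 2 hESC libraries, and 5 of those had no peak in any of the 5 later libraries. The region at chr9:124054387-124055268, 21514 bp beyond the gene, had no peak in hESC or hDE, weaker peaks of 6.52-fold and 3.92-fold at hAFE and a strict 5.80-fold peak in hPFE. The region at chr9:124078045-124078361 had a peak in hPFE only, at 4.50-fold. LHX2 was the 1 member with more strict regions in hPFE than in either hAFE library. OTX1, a homeodomain factor of anterior brain and sense organs, gained chr2:62972507-62973170 inside the neighbouring EHBP1. That region had no peak in hESC, strict peaks of 10.0-fold and 16.7-fold at hDE and 15.0-fold and 8.44-fold at hAFE, and a weaker 3.67-fold peak in hPFE. Also in EHBP1, chr2:63007897-63008402 was strict in hAFE at 10.4-fold and 7.64-fold and absent from hPFE. Beyond the other end of OTX1, chr2:63078893-63079196 was strict in hESC at 7.06-fold and 11.2-fold and absent from hPFE.

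SOX1, the SOXB1 factor of the neural plate, had a pair of such regions. The region at chr13:112011966-112012714, 55017 bp before the gene, had fold enrichments of 2.57 and 8.64 at hESC, none in hDE, 12.5 and 10.8 at hAFE and 3.20 at hPFE. It was strict in hESC replicate 2 and in both hAFE libraries. The region at chr13:112152051-112152390 had a peak in hPFE only, at 9.02-fold. ZIC2, a zinc finger factor active in pluripotent cells and in the neural plate, shares its window with ZIC5. The region at chr13:99909926-99910639, within 1 kb of an end of CLYBL, had no peak in hESC or hPFE, weaker peaks of 2.72-fold and 5.14-fold at hDE and strict peaks of 20.9-fold and 10.6-fold at hAFE. Relative to hESC, hPFE lacked the regions at chr13:99892141-99892742, chr13:99957419-99957930 and chr13:99979005-99979375. The last of these lay 2550 bp before the start of ZIC2, was strict in both hESC libraries at 3.14-fold and 4.37-fold, and had no peak in hAFE either. At chr13:100039798-100040159 a 5.40-fold peak was found in hPFE only, and at chr13:99968417-99968678, inside ZIC5, hPFE had a strict 4.85-fold peak and hESC and hDE had none.

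POU3F1, a POU factor of the primed pluripotent state and of neural progenitors, held 3 regions strict in every library, each at an end of another gene. At chr1:37958421-37959229, inside SF3A3, a 9.72-fold peak was found in hPFE only. At chr1:38029005-38029754 the hESC libraries had strict peaks of 4.09-fold and 7.91-fold and hPFE had none. Outside its gene SALL3 had regions of either direction. The region at chr18:79026277-79027017 had fold enrichments of 11.2 and 16.6 at hESC, 2.51 and 7.83 at hDE and 3.71 at hAFE replicate 2, with no peak in hAFE replicate 1 or hPFE. The region at chr18:78999899-79000301, 1205 bp beyond the gene, had no peak in hESC or hDE and was strict at 12.8-fold and 6.95-fold at hAFE and 7.49-fold at hPFE. At chr18:79030705-79031009, hAFE replicate 2 had a weaker 5.77-fold peak and hPFE a strict 5.25-fold peak, and the other 5 libraries had none. The 4 regions with a peak in hPFE alone, at SOX1, ZIC2, POU3F1 and LHX2, rest on a single library.

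The other neural ectoderm genes of a list of 32 held 215 and 213 strict regions at hESC, 199 and 167 at hDE, 176 and 212 at hAFE, and 153 at hPFE. In hPFE against hESC, 19 of the 32 were lower and 5 higher (SOX21, EMX2, EN1, EN2 and DACH1), against 36.5% and 21.6% of all genes. In hDE against hESC 8 were lower and 3 higher, shares near the 23.4% and 11.5% of all genes. In hPFE against hAFE 15 were lower and 4 higher, against 32.3% and 23.9%. ZIC1, a ZIC2 relative, had 12 and 9 strict regions at hESC, 10 and 7 at hDE, 1 and 4 at hAFE, and 2 at hPFE. OTX2, the OTX1 relative that is also used in anterior endoderm, had 11 and 10 at hESC, 8 and 6 at hDE, 5 and 6 at hAFE, and 3 at hPFE. LHX5, a LIM homeodomain gene, had 2 in hPFE, against 6 and 9 in hESC. DACH1, a transcriptional cofactor of eye and limb development, moved the other way, with 13 in hPFE, against 7 and 5 in hESC. ZIC5 is on this list and has the same regions as ZIC2. A list of 12 endoderm genes had 49 and 57 strict regions at hESC, 109 and 79 at hDE, 73 and 73 at hAFE, and 59 at hPFE. In hDE against hESC 8 of the 12 were higher and none was lower, against 11.5% and 23.4% of all genes. In hPFE against hAFE 3 were higher and 8 lower, against 23.9% and 32.3% of all genes. In hPFE against hESC 5 were higher and 4 lower, against 21.6% and 36.5%, and the share lower was near that of all genes. GATA6 had 8 and 5 at hDE, against 1 and 1 at hESC, and EOMES had 13 and 13 at hDE, against 8 and 7 at hESC. CER1 had 10 and 5 at hDE, against 2 and 2 at hESC, and FOXA2 had 12 and 9 at hDE, against 3 and 7 at hESC.

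Over the 7 libraries the count of strict regions of SOX1 followed the summed count of the other 8 members (Pearson r = 0.973), and that of POU3F1 did so less closely (0.802). For PAX6, SIX3 and ZIC2 r was 0.757, 0.743 and 0.739, and for SALL3, LHX2 and OTX1 it was 0.171, 0.152 and 0.015. SIX6 had no variation. These values describe 7 libraries that also differ in recovered background, and carry no test. Among 17867 other genes, the 5 whose counts followed the members' sum most closely were CAMKV (r = 0.998), UBA7 (0.992), TRAIP (0.990), MON1A (0.987) and MST1R (0.987), and 374 genes were above 0.9. The 5 genes are close neighbours on chromosome 3, so that they share regions and count as a single pattern. At the limit of the windows, the 7 regions in the last 10 kb inside were strict 4 and 4 times at hESC, 2 and 1 at hDE, 3 and 2 at hAFE, and 1 at hPFE. The 8 regions in the first 10 kb outside were strict 2 and 1 times at hESC, 3 and 5 at hDE, 3 and 4 at hAFE, and 2 at hPFE.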

How the data were processed

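ATAC-seq peak lists of 7 libraries, 1 list per library, were used. Per the submitters' processing notes the build was hg38 and DiffBind was used. Neither the aligner nor the peak caller is given in the sources used here. File names of the deposited lists record a p limit of 0.01 and a limit of 300000 peaks. Each deposited peak carries the authors' fold enrichment (a ratio), −log10 p, −log10 q and a display score. The deposited −log10 p ranked regions, −log10 q served 1 alternative, fold described peaks and the deposited score was not used.

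Overlapping peaks of a library were merged, and the top 50000 by −log10 p were strict. Strict regions of the autosomes and X that shared at least 1 bp were then joined across libraries. Summit pileup P and background L were recovered from fold, (P + 1) / (L + 1), and the Poisson tail, for 100% of regions within 0.001. The number of deposited peaks was held level by the limit, and the weakest deposited −log10 p lay between 2.23 (hESC replicate 1) and 8.86 (hDE replicate 2). Precision is limited by 1 or 2 libraries per stage. The region rules and the recovery were tested on simulated data.

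Groups and replicate numbers came from the sample titles. Same-numbered replicates did not deviate together (r of deviations from -0.064 to 0.013), so the numbers were not used to pair libraries. Genes, starts and sequences came from RefSeq GRCh38.p14. The members and the gene lists were chosen with earlier results of these data known. Named by rule were all members, the start region and best-ranked gained or lost region of each, the 5 genes with the most similar counts and up to 4 genes of each wider list; the other regions were chosen after their values were seen. Python 3.11.15, numpy 2.4.6, pandas 2.3.3, scipy 1.17.1 and matplotlib 3.10.9 were used. Alternatives changed the strict limit, the overlap, the window and the libraries.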

Additional observations from a re-analysis of the deposited data

How the results depend on the processing

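No count carries a test, and the numbers of gained and lost regions depended on the limit for strict. Gained and lost are given as pairs for hDE against hESC, hAFE against hDE, hPFE against hAFE and hPFE against hESC, in that order. By rank at 50000 they were 2 and 2, 4 and 1, 4 and 3, and 9 and 9 of 114 regions. With the top 25000 (56 regions at the loci) they were 2 and 0, 1 and 1, 2 and 2, and 4 and 3. Gained shares there were 3.57% against 3.82% of all regions, 1.79% against 0.927%, 3.57% against 5.34% and 7.14% against 9.73%. Lost shares were 0% against 0.444%, 1.79% against 1.87%, 3.57% against 1.84% and 5.36% against 3.6%. The top 100000 (252 regions) gave 10 and 9, 10 and 9, 18 and 13, and 31 and 26. Gained shares were 3.97% against 6.48%, 3.97% against 3.82%, 7.14% against 11.9% and 12.3% against 16.2%. Lost shares were 3.57% against 2.51%, 3.57% against 4.54%, 5.16% against 7.58% and 10.3% against 8.89%. A −log10 q limit of 5 was also used (336 regions), and they were 12 and 8, 15 and 12, 15 and 18, and 28 and 21. The gained shares there were 3.57% against 5.26% of all regions, 4.46% against 4.14%, 4.46% against 7.57% and 8.33% against 10.6%. The lost shares were 2.38% against 1.38% of all regions, 3.57% against 3.77%, 5.36% against 7.84% and 6.25% against 5.25%. With a summit of at least 10 times background (211 regions) the numbers were 6 and 11, 9 and 6, 2 and 9, and 5 and 20. Gained shares under this limit were 2.84% against 3.3% of all regions, 4.27% against 2.53%, 0.948% against 2.69% and 2.37% against 4.71%. Lost shares were 5.21% against 0.858% of all regions, 2.84% against 1.89%, 4.27% against 4.84% and 9.48% against 4.39%. A window of 50 kb (79 regions) gave 1 and 1, 2 and 1, 1 and 2, and 6 and 6. Its gained shares were 1.27% against 5.43% of all regions, 2.53% against 2.05%, 1.27% against 8.45% and 7.59% against 13.4%. Its lost shares were 1.27% against 1.15%, 1.27% against 3.2%, 2.53% against 4.18% and 7.59% against 6.61%. With 1 library per stage of similar background the numbers were 3 and 12, 7 and 4, 4 and 6, and 9 and 21. Here the gained shares were 2.63% against 7.64% of all regions, 6.14% against 6.67%, 3.51% against 10.2% and 7.89% against 15.1%. The lost shares were 10.5% against 5.09% of all regions, 3.51% against 5.82%, 5.26% against 7.73% and 18.4% against 12.2%. An overlap of at least 50% of the shorter gave 2 and 2, 4 and 1, 4 and 4, and 9 and 9. With it the gained shares were 1.75% against 5.49% of all regions, 3.51% against 2.08%, 3.51% against 8.6% and 7.89% against 13.6%. The lost shares were 1.75% against 1.17%, 0.877% against 3.23%, 3.51% against 4.23% and 7.89% against 6.71%. Under each of these 7 settings the gained share at the loci lay below that of all regions in 3 or 4 of the 4 comparisons (for the top 100000 in hPFE against hESC, 12.3% against 16.2%), and the lost share in 1 or 2. Leaving out 1 library at a time gave ranges of 2 to 4 gained and 2 to 9 lost in hDE against hESC, 4 to 6 and 1 to 4 in hAFE against hDE, 4 to 6 and 3 to 6 in hPFE against hAFE, and 9 to 9 and 18 to 21 in hPFE against hESC. Calls of regions and of genes must hold in every library of both stages. Leaving 1 out can therefore only keep or add calls, so these ranges are no check on them. The number of the 9 genes lower in hDE than in hESC was 4, and it was 2 with the top 25000, 0 with the −log10 q limit, 2 with the summit limit, and 4 to 6 with 1 library left out. Genes lower in hPFE than in hAFE numbered 4, and 7 with the −log10 q limit, 9 with the summit limit and 5 to 6 with 1 library left out. Genes lower in hPFE than in hESC numbered 7, and 3 with the top 25000, 3 with the −log10 q limit, 9 with the summit limit and 7 to 8 with 1 library left out. No share of all genes is given for these other settings. For single genes, the difference between hPFE and the mean of hESC turned positive with the top 25000 at PAX6 (2 regions) and OTX1 (0.5). The cause was not tested.

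Replicate numbers were compared as a block by calling regions within same-numbered pairs. The pairing gave the same counts, since a region must pass in every library. The numbers shared no deviation between stages, and hPFE has no second library, so no paired comparison was made with it. Region counts here are limited by the equal length of the lists, and a weak peak removed by the limit on number counts as absent.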
